A study of Rattus norvegicus with 9 samples.

Results

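The livers of 3 stressed rats whose depression was labelled mild (CUMS 4, 5 and 6) were compared with the livers of 3 unstressed rats (control 1, 2 and 3). These 6 arrays were chosen by their titles and symptom labels, out of 9 in all, and each held the liver RNA of 1 rat. The other 3 arrays (CUMS 1, 2 and 3, labelled major depression) were used for the variance estimate and for a direct comparison of the 2 stressed groups. All rats were male Goto-Kakizaki (GK) rats, an inbred strain that becomes diabetic without any treatment. They were bought at 5 weeks of age, kept for 7 weeks until diabetic, and then either left unstressed or given 1 stressor a day for 8 weeks (chronic unpredictable mild stress, CUMS). The stressed rats were housed alone, so stress and single housing cannot be told apart. Every rat of every group also received repaglinide, an insulin secretagogue, at 6 mg/kg by gavage and was bled repeatedly before the liver was taken. No rat without diabetes was measured. Of the 31099 probe sets on the array, the 31042 that are no spike-in or other control sequence were used.

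The liver is made mostly of hepatocytes, which take up drugs and steroids, oxidize them with cytochrome P450 and flavin enzymes, conjugate them with glucuronic acid, sulfate or glutathione, and export the products into bile or blood. Much of this machinery is under the nuclear receptors CAR (Nr1i3) and PXR (Nr1i2), while PPAR-alpha drives fatty acid oxidation and FXR keeps bile acid synthesis in check. The sinusoids and portal tracts hold Kupffer cells, endothelium, stellate cells, fibroblasts, bile duct cells and lymphocytes, which make most of the matrix, antigen presentation and cytokine transcripts of a liver sample. A bulk signal mixes all of these, and fewer cells of a type cannot be told apart from less RNA per cell.

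The arrays held liver RNA. Albumin (Alb) gave signals of 26932, 26122 and 20382 in control 1, 2 and 3 and of 29583, 27540 and 25610 in CUMS 4, 5 and 6, and 11 of 12 listed hepatocyte markers were on the array and passed the signal filter described next. Signals are MAS 5.0 intensities on a linear scale that the authors had set to the same trimmed mean on every array, close to 500.2, so a value compares livers for 1 probe set but not 1 gene with another. Control 3 differed from every other array. Over the probe sets that passed the signal filter, its correlation with the remaining 8 had a median of 0.951, where the rest had 0.965 to 0.972. On the same probe sets it lay alone at one end of the first principal component (23.9% of the variance). The summed signal of 23 stellate cell and fibroblast markers was 61354 in control 3, 23163 and 23315 in control 1 and 2, and 18672 to 22534 in CUMS 4 to 6. That of 5 bile duct markers was 11062 in control 3 and between 1964 and 2485 in the other 5 livers. Beta-actin probe sets at the 3′ end read 4.96 times those at the 5′ end in CUMS 4, 2.51 times in control 3 and 3.18 to 3.67 times in the other 4, which is a measure of RNA length. What part these differences have in the results was not tested, so results are given with control 3 left out where that matters.

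No probe set passed the threshold. After the lower 40% by mean log2 signal had been left out, 18625 probe sets were tested with limma, and 0 of them (0%) had a Benjamini-Hochberg adjusted p under 0.05. The smallest adjusted p was 0.129. At an unadjusted p under 0.05, 1170 probe sets remained, of which 509 (2.73%) were higher and 661 (3.55%) lower in the mild-label livers. The equal-variance test on log2 signals that stands in for the study's own called 473 higher and 520 lower at the same level, and again 0 after adjustment. In 995 probe sets (5.34%) all 3 stressed livers lay above all 3 controls, and in 1172 (6.29%) all 3 lay below. With 1 probe set per gene, the one with the highest mean signal, 10403 genes were left. Of these 331 (3.18%) were higher and 436 (4.19%) lower at an unadjusted p under 0.05, and 633 (6.08%) and 751 (7.22%) did not overlap between the groups. These last 4 shares are the background against which the counts within gene groups below are read. For counts of genes higher or lower at any p, the background is 4784 higher and 5619 lower of the 10403. The medians of gene lists depended on single arrays: in 32 of 36 lists, leaving out 1 array turned the sign of the median or changed it by over 1.5 times. The genes named next were picked for a fold change of at least 1.5, groups that do not overlap and the smallest p, so their separation is part of the choice. Members of gene lists are given mainly by smallest p, and the others as examples chosen after their values were seen. Some genes belong to several lists, such as Ugt2b1, Slco1a4, Ces2c, Abcb11, Slc10a1 and Cyp17a1. Counts of different lists are therefore not independent of each other.

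**Figure D1:**
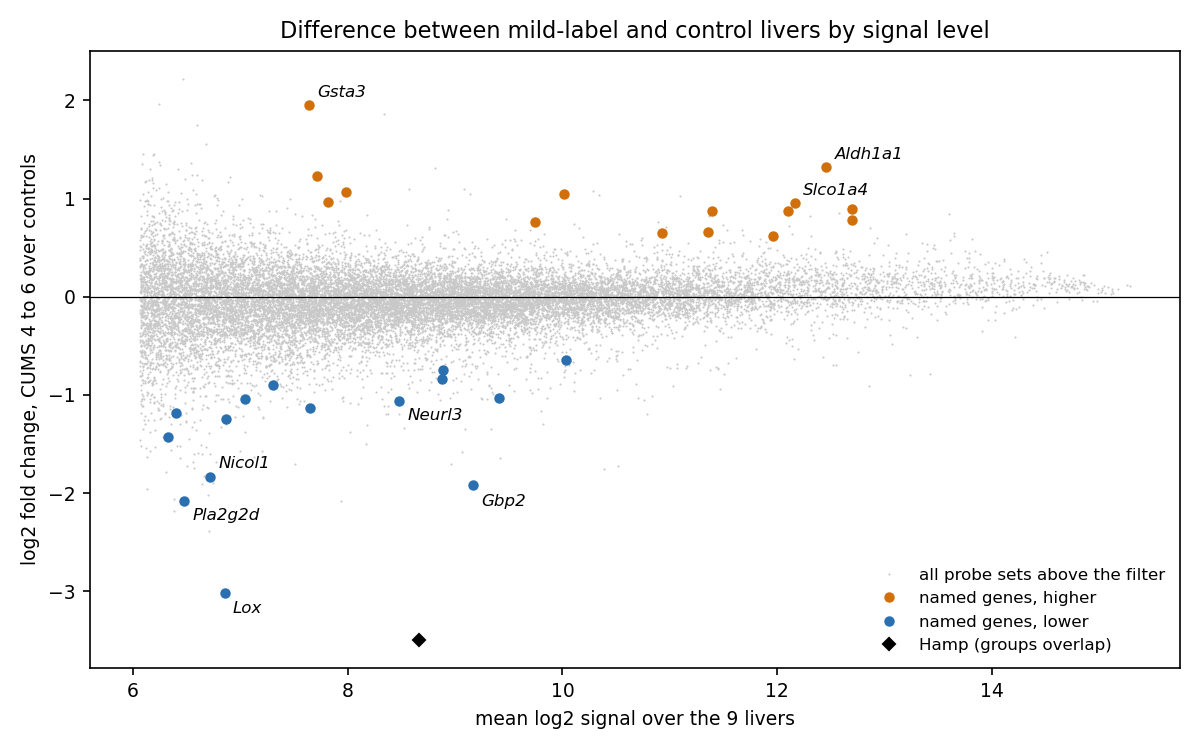
Each grey point is 1 of the 18625 probe sets, with its mean log2 signal over the 9 livers on the x axis and the log2 fold change of CUMS 4 to 6 over the controls on the y axis. Coloured points are the 15 higher and 15 lower named genes, from Gsta3 at 1.95 to Lox at -3.01, and the diamond is Hamp at -3.49, whose groups overlap. The cloud is widest at low signals, and at the right end most points lie above 0.

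Several of the named higher genes encode enzymes or a carrier of drugs, aldehydes and steroids, such as Gsta3, Slco1a4, Aldh1a1, Ugt2b1, Fmo1, Ephx2 and Gstt3. Among 93 candidate genes the smallest p belonged to Gsta3, an alpha-class glutathione S-transferase (RefSeq also lists it as Gsta5 and Yc2). Its probe set gave 85.5, 93.9 and 95.6 in control 1, 2 and 3 and 276, 387 and 415 in CUMS 4, 5 and 6. The controls were close together and the lowest stressed liver was well above them. The difference was 1.95 ± 0.25 on the log2 scale (SE), or 3.86-fold, with an adjusted p of 0.129 from limma. Leaving out control 3 gave 1.98. Glutathione transferases of this class are very alike in sequence, and how far the probe set tells them apart was not tested.

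Slco1a4, which carries bile salts, steroids and digoxin into hepatocytes, read 3494, 2496 and 3123 in the controls and 4982, 6068 and 6528 in CUMS 4 to 6. This was 1.93-fold (log2 0.95 ± 0.15, adjusted p = 0.272 from limma). A brighter probe set of the gene went from 7689 to 11124 in the controls to 14390 to 16646 in the stressed livers, so both probe sets separated the groups. Aldh1a1, an aldehyde dehydrogenase that makes retinoic acid from retinal, had signals of 3654, 2435 and 3803 against 6298, 9777 and 8595, which was 2.5-fold (log2 1.32 ± 0.21, adjusted p = 0.272 from limma). Ugt2b1, a steroid- and drug-conjugating glucuronosyltransferase, read 5384, 4832 and 3717 against 7579, 7844 and 10476 (log2 0.90 ± 0.16). In each of these 3 genes no stressed liver came near the highest control. Fmo1, a flavin monooxygenase, had 2769, 1469 and 1763 against 3761, 3448 and 3384. Ephx2, the soluble epoxide hydrolase, had 162, 141 and 170 against 335, 271 and 318. Gstt3, a theta-class glutathione transferase, had 3551, 3223 and 3645 against 6727, 5809 and 6583. Their log2 differences were 0.87, 0.96 and 0.87, and their adjusted p from limma was 0.744, 0.744 and 0.743.

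The other named higher genes had various functions. Aldh1l1, which oxidizes 10-formyltetrahydrofolate, read 5142, 6051 and 4401 in the controls and 9086, 8650 and 8842 in the stressed livers (log2 0.78 ± 0.13). The 3 stressed values lay within a narrow band above all controls. Vnn1, the pantetheinase that releases pantothenate and cysteamine and a known target of PPAR-alpha, read 880, 501 and 595 against 995, 1735 and 1334, with CUMS 4 close to control 1. Reep6, an endoplasmic reticulum protein, had 2259, 2348 and 1713 against 3495, 3329 and 3053, and Glod5, a glyoxalase-domain protein, 147, 102 and 97.3 against 336, 247 and 227. Tmem106b (a lysosomal membrane protein), Lgalsl (a galectin-like protein), Stard13 and Ngef (a guanine nucleotide exchange factor) had log2 differences of 0.62, 0.77, 0.65 and 1.07. The other probe sets of Lgalsl and Tmem106b had log2 differences above 0 as well. Over the 15 genes, leaving out control 3 moved the log2 difference of Ugt2b1 to 0.74, of Aldh1l1 to 0.67 and of Reep6 to 0.51, and left the other 12 at 0.65 or more.

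**Figure D2:**
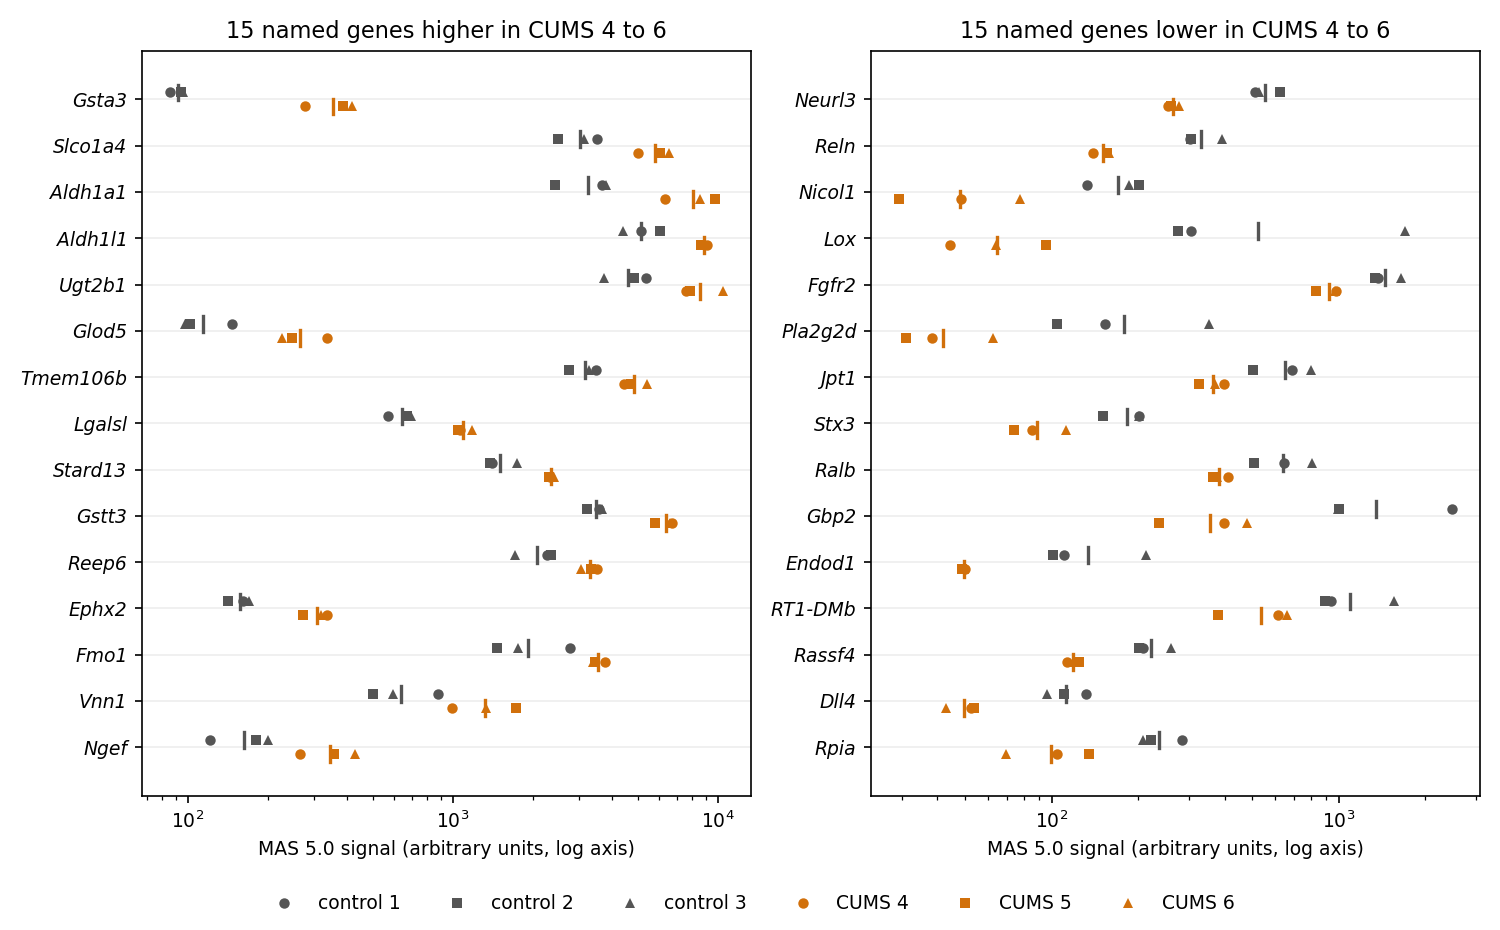
MAS 5.0 signals on a log axis for the 15 named genes higher (left) and the 15 lower (right) in the mild-label livers, ordered by p from the top. Grey symbols are control 1 to 3, orange symbols CUMS 4 to 6, and short bars the group means of log2 signal. No orange symbol overlaps the grey ones in any row, as the choice of genes required, and control 3 (grey triangle) is far to the right of the other controls for Lox.

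The nuclear receptors themselves differed less clearly. Nr1i3 (CAR) read 384, 212 and 388 in the controls and 365, 619 and 720 in CUMS 4, 5 and 6, so CUMS 4 lay inside the control range while CUMS 5 and 6 lay above it. Its log2 difference was 0.79 ± 0.30, with an adjusted p of 0.757 from limma. Nr1i2 (PXR) read 1950, 1807 and 1350 against 1611, 1712 and 1777, a log2 difference of 0.01 with full overlap. Among the genes that the study followed by PCR, Cyp3a18, a steroid- and drug-oxidizing P450, read 6581, 7365 and 7374 against 8936, 10726 and 14154, with every stressed liver above every control (log2 0.64 ± 0.16, adjusted p = 0.744 from limma). Cyp17a1, the steroid 17-alpha-hydroxylase, read 271, 319 and 148 against 553, 553 and 636, which was 2.47-fold (log2 1.31 ± 0.32, adjusted p = 0.744 from limma). Without control 3 its log2 difference was 0.98. The probe sets for Cyp2b1, Cyp2b2 and Ugt1a1 are assigned to several genes each, so their values cannot be credited to 1 gene. That of Cyp2b1 and Cyp2b2 read 100, 76.3 and 110 against 143, 185 and 269 (log2 1.03). Probe sets shared by the Ugt1a genes had log2 differences of 0.59 and 0.62. In all of these every stressed liver lay above every control. A further probe set, assigned to both Gsta5 and Gsta2, had a log2 difference of 0.47, beside 1.95 for the probe set named Gsta3.

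Of 18 measured genes in a list of CAR and PXR with their targets, 15 were higher, 7 of them at an unadjusted p under 0.05 and 6 without overlap. The median log2 difference was 0.22, beside -0.02 over all 10403 genes, and 0.10 both without control 3 and without CUMS 6. The 7 were Aldh1a1, Ugt2b1, Slco1a4, Cyp3a18, Ces2c, Nr1i3 and Ephx1. Abcc3, which pumps conjugates from the hepatocyte back into blood, went the other way, with 125, 128 and 313 in the controls and 102, 24.6 and 55.6 in the stressed livers (log2 -1.73 ± 0.56). CAR and PXR bind, as partners of RXR, to paired short words written AGGTCA or AGTTCA. In the 150 bases before the gene start, 8 of the 16 list genes with a promoter in the RefSeq table held one of these words on either strand, beside 15% of all 33469 promoters. A match describes the letters of the reference genome and not a bound site. For list genes 1 promoter each was counted, and for the background every promoter of the table. The list gathers genes by known function, so the share describes the list and not a difference between livers. The same holds for the words counted in other lists below. Among the 7 genes with a low p, Ugt2b1, Cyp3a18 and Ces2c held a word, while Aldh1a1, Slco1a4, Nr1i3 and Ephx1 did not. Outside the 7, Abcc2, Cyp3a2, Cyp3a9, Gstm1 and Nr1i2 held a word too. The word was thus found in genes with and without a low p. The promoters of Ugt2b1 and Cyp3a18 are shown as examples that hold it and separated the groups (GRCr8, 5′ to 3′ along the gene, match in capitals):
Ugt2b1, chr14:21378732-21378881, + strand: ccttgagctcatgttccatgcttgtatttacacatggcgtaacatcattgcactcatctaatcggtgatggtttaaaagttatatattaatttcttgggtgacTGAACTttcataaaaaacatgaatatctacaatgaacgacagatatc
Cyp3a18, chr12:13994162-13994311, + strand: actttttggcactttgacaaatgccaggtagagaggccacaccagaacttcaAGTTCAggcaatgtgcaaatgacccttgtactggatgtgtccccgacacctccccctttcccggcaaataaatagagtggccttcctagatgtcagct

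The drug-metabolizing enzymes as groups were mostly higher in the mild-label livers. General hepatocyte markers were higher in 9 of 11 cases too, 1 at an unadjusted p under 0.05 and 2 without overlap. Their median log2 difference was 0.12 (0.01 without control 3). How far the enzyme lists share in a shift of hepatocyte genes was not tested. In the list of other oxidizing and hydrolysing enzymes (flavin monooxygenases, carboxylesterases, epoxide hydrolases, alcohol and aldehyde dehydrogenases), 18 of 19 genes were higher, 9 at an unadjusted p under 0.05 and 9 without overlap, with a median log2 difference of 0.34 (0.27 without control 3). Their mean log2 distance from the control mean was 0.34, 0.42 and 0.46 in CUMS 4, 5 and 6 and between -0.09 and 0.10 in the controls. Of the 9 with a low p, 4 were carboxylesterases, which cleave ester drugs. Ces1d read 5239, 4062 and 3663 against 5707, 8101 and 9954, Ces1e 2351, 2262 and 2104 against 3222, 3047 and 3250, and Ces2c 541, 494 and 615 against 957, 699 and 1004. In all 3 the groups did not overlap, although CUMS 4 was close to control 1 for Ces1d.

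Of 26 measured genes in a list of cytochrome P450 families 1, 2 and 4, to which the receptor gene Ahr and the steroid hydroxylase gene Cyp17a1 were added (Cyp3a18 was counted with the CAR and PXR targets), 23 were higher, 7 at an unadjusted p under 0.05 and 8 without overlap, while Cyp2c12 lay below every control (log2 -0.38). The median was 0.23 (0.15 without control 3). Besides Cyp17a1, the 7 were Cyp4f1, Cyp2d3, Cyp1a1, Cyp2j4, Cyp4a3 and Cyp2j3. Cyp4f1, a fatty acid and leukotriene hydroxylase, read 17278, 15776 and 14253 against 20073, 20681 and 19880. Cyp1a1, the classic target of the aryl hydrocarbon receptor, read 305, 215 and 73.6 against 761, 288 and 1059, so CUMS 5 was below control 1 and the log2 difference of 1.86 ± 0.54 came down to 1.26 without control 3. The male-specific Cyp2c11 had a log2 difference of 0.21 and the constitutive Cyp2e1 of 0.13. Of 25 conjugating enzymes of phase II, 22 were higher, 4 at an unadjusted p under 0.05 (Gsta3, Ugt2b1, Sult1b1 and Gstt1) and 9 without overlap, with a median of 0.19 (0.11 without control 3).

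Of 12 uptake transporters 11 were higher, 3 at an unadjusted p under 0.05, and the same 3 did not overlap. Besides Slco1a4 these were Slco1a1, an organic anion carrier, with 4514, 4534 and 4079 against 5969, 6164 and 5826 (log2 0.45 ± 0.10), and Slc10a1, the sodium-dependent bile salt carrier NTCP, with 21517, 18577 and 18386 against 23270, 24826 and 26216 (log2 0.35 ± 0.10). Among 14 ABC exporters 10 were higher and 4 lower, with 2 against 1 (Abcc3) at an unadjusted p under 0.05 and 1 against 2 (Abcc3 and Abca1) without overlap. Their median was 0.17, and -0.02 without CUMS 6, so the exporters as a group had no settled direction. Abcc3, as given above, passed the filter only through livers other than CUMS 4 to 6. Abcb11, the bile salt export pump, read 4934, 5293 and 4801 against 7976, 6164 and 6714 (log2 0.47 ± 0.11, adjusted p = 0.744 from limma). Abcb4, which moves phosphatidylcholine into bile, read 1182, 1013 and 1537 against 1443, 1902 and 2181, with CUMS 4 below control 3.

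Bile acid carriers and later steps of synthesis were separated more clearly than the first step. Of 16 measured genes of bile acid synthesis and the FXR axis 14 were higher, 5 at an unadjusted p under 0.05 and 6 without overlap, with a median of 0.20 (0.09 without control 3). The 5 were Abcb11, Slc10a1, Slc27a5, Akr1d1 and Cyp27a1. Slc27a5, the bile acyl-CoA ligase that readies bile acids for conjugation, read 20933, 19284 and 17282 against 24849, 23957 and 28333. Akr1d1, the steroid 5-beta-reductase, read 11196, 8972 and 10081 against 13868, 14906 and 16269 (log2 0.58 ± 0.15). These were separated in every liver. Cyp7a1, the rate-limiting enzyme of bile acid synthesis, was not: it read 9581, 13097 and 4835 against 5592, 7821 and 19331. Nr0b2 (SHP), the repressor that FXR induces, read 1418, 2589 and 1328 against 736, 3151 and 3086, and Nr1h4 (FXR) itself had a log2 difference of 0.21 ± 0.18 with overlap.

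Fatty acid oxidation and respiration genes were higher by small amounts. Of 32 PPAR-alpha targets and oxidation genes 26 were higher, 8 at an unadjusted p under 0.05 and 11 without overlap, with a median of 0.25 (0.21 without control 3). Ehhadh, the peroxisomal bifunctional enzyme, read 6468, 5078 and 5867 against 7203, 8850 and 9369 (log2 0.54 ± 0.13), and Eci2, an enoyl-CoA isomerase, 4968, 4680 and 4389 against 5806, 5744 and 5641 (log2 0.29 ± 0.09). Decr1, the mitochondrial dienoyl-CoA reductase, read 11822, 8436 and 9466 against 11304, 13681 and 13326 and overlapped through CUMS 4. Of 27 respiratory chain genes 25 were higher, 4 at an unadjusted p under 0.05 and 10 without overlap, but the median was 0.16, and 0.07 without control 3. Atp5po, a subunit of the ATP synthase stalk, read 6629, 7163 and 5998 against 8330, 8099 and 7823.

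Of 36 genes of amino acid, urea cycle and one-carbon metabolism 33 were higher, 5 at an unadjusted p under 0.05, with a median of 0.19 (0.08 without control 3). Otc, the urea cycle ornithine transcarbamylase, read 18081, 17539 and 15766 against 18592, 20071 and 21770. Of 21 cholesterol genes 19 were higher, with a median of 0.23, yet 0 had an unadjusted p under 0.05 and 0 were free of overlap, and CUMS 5 lay at -0.17 and CUMS 6 at 0.52 in the mean of the list. The median was 0.07 without CUMS 6, 0.39 without CUMS 5 and 0.13 without control 1. Apolipoproteins had 14 of 18 genes higher, with Apom at 9472, 10292 and 8689 against 13994, 11901 and 14120 and Mttp, the lipid transfer protein of lipoprotein assembly, at 5573, 5874 and 5958 against 6819, 6916 and 7723. Lists of lipogenesis and of gluconeogenesis had medians of 0.10 and 0.10, and -0.04 and -0.01 without control 3. In the latter Gckr, the glucokinase regulator, read 2446, 2787 and 2316 against 3971, 3701 and 3400, and Akt1 1901, 1950 and 1813 against 1551, 1602 and 1429. Hepatocyte genes sit among the brightest probe sets, and these were higher as a whole. Of 204 probe sets with a mean log2 signal above 14, 88.7% were higher, with a median log2 difference of 0.11 (0.02 without control 3), beside 43.1% and -0.05 for the 7556 at or below 8. Of the 1016 from 12 to 14, 72.5% were higher, with a median of 0.09. The part of this slope in the list counts and medians was not tested. With quantile normalization the median of phase II enzymes was 0.10 and that of the oxidizing and hydrolysing enzymes 0.23.

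**Figure D3:**
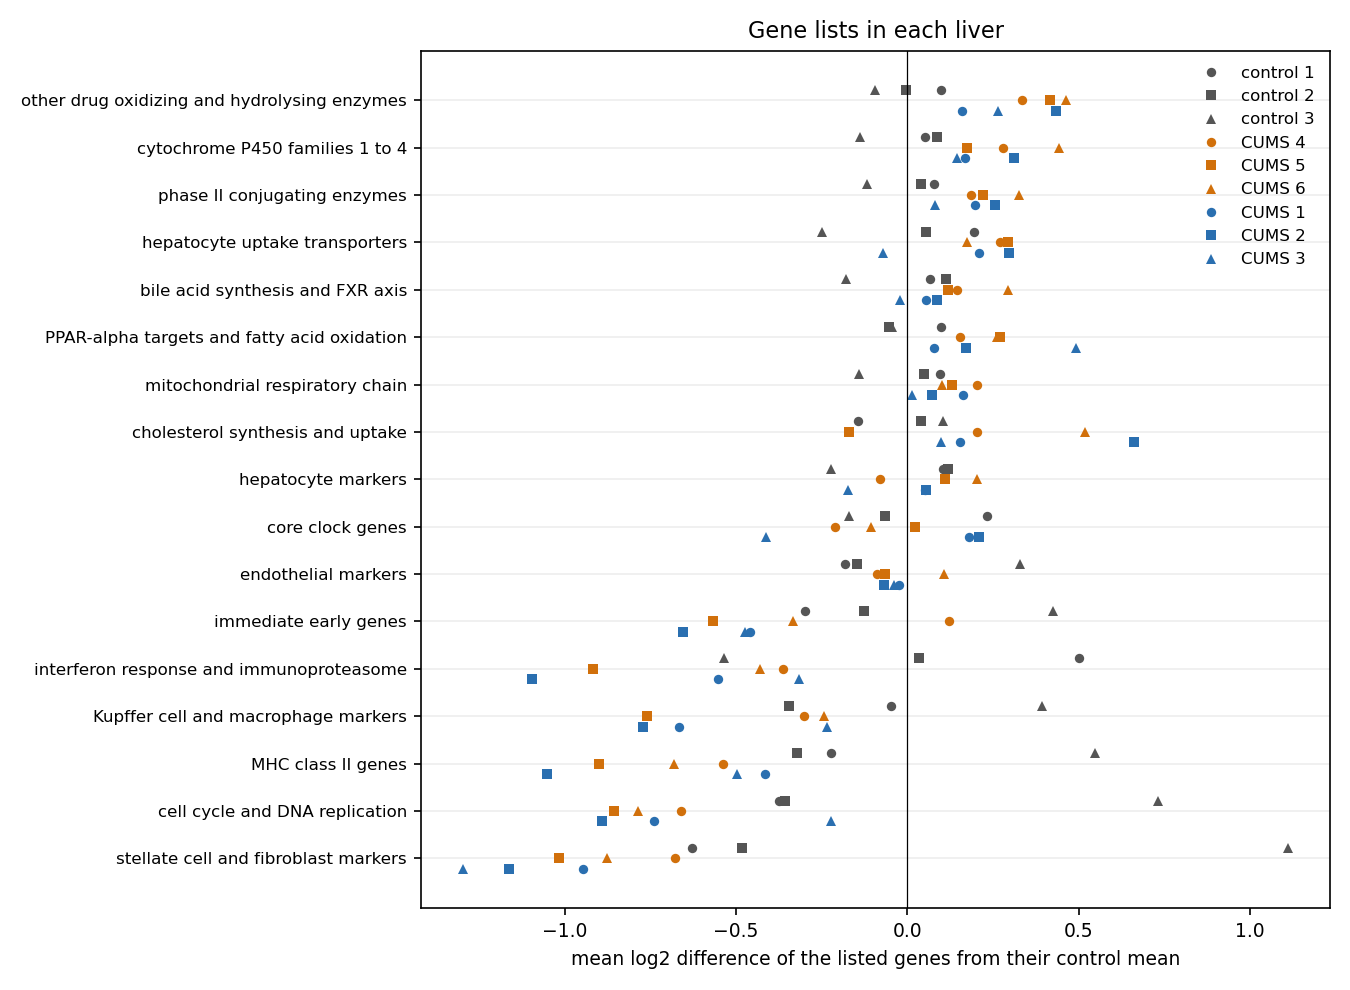
Each point is 1 liver, placed on the x axis at the mean log2 difference of the genes of a list from their control mean, for 17 lists on the y axis. Grey marks control 1 to 3, orange CUMS 4 to 6 and blue CUMS 1 to 3. The orange points lie right of all grey ones for the oxidizing and hydrolysing enzymes (0.34 to 0.46), and control 3 lies alone at 1.11 for stellate cell and fibroblast markers.

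The 15 named lower genes came from 264 candidates and had various functions. Neurl3, a ubiquitin ligase of the neuralized family, had the smallest p, with 510, 622 and 528 in the controls and 254, 260 and 278 in the stressed livers. This was a log2 difference of -1.06 ± 0.14 (adjusted p = 0.129 from limma), with a narrow spread in both groups. Lox, lysyl oxidase, which cross-links collagen, read 306, 275 and 1694 against 44.4, 95.8 and 63.8. Its log2 difference was -3.01 ± 0.60, and -2.16 without control 3. The mean log2 signal of Lox in the stressed livers, 6.02, was under the lowest mean that passed the filter (6.07), so the gene passed through the controls and the size of its difference is uncertain. The means of Nicol1, Pla2g2d, Endod1 and Dll4 in CUMS 4 to 6 were also under it, at 5.58, 5.39, 5.63 and 5.63. These genes passed through the controls and CUMS 1 to 3, and such genes had to be lower to be seen at all. Reln, the extracellular glycoprotein reelin, which stellate cells make in liver, read 303, 305 and 391 against 139, 155 and 159, and its second probe set 1383, 1618 and 1640 against 1063, 1146 and 1142. Fgfr2, a receptor of fibroblast growth factors, read 1368, 1339 and 1649 against 980, 832 and 972, and Dll4, a Notch ligand of endothelium, 132, 110 and 96.5 against 52.3, 53.8 and 42.9. A second probe set of Dll4 lay in the opposite direction (log2 0.35 ± 0.23), so the gene as a whole has no settled direction.

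Immune genes in this set were Gbp2, Pla2g2d and RT1-DMb. Gbp2, an interferon-induced guanylate-binding protein, read 2478, 999 and 993 in the controls and 399, 236 and 479 in CUMS 4 to 6 (log2 -1.92 ± 0.45, adjusted p = 0.744 from limma), with control 1 far above the other controls. Pla2g2d, a secreted phospholipase of immune cells, read 153, 104 and 354 against 38.2, 31 and 62.5. Nicol1, a small secreted protein, read 133, 201 and 187 against 48.5, 29.3 and 77.5 (log2 -1.83 ± 0.35). The rest had smaller differences: Stx3 (a membrane fusion protein), Rpia (ribose phosphate isomerase of the pentose phosphate pathway), Ralb (a small GTPase), Rassf4 (a Ras-association protein), Jpt1 and Endod1 had log2 differences of -1.04, -1.25, -0.74, -0.90, -0.84 and -1.43. Several of these signals were low, and Endod1 was at 48.7 to 50.1 in the stressed livers. Over the 15 lower genes the difference without control 3 ran from -0.55 (Fgfr2) to -2.16 (Lox).

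All 8 measured genes of MHC class II antigen presentation were lower, 5 at an unadjusted p under 0.05 and 4 without overlap. These proteins show peptides to helper T cells and are made by macrophages, dendritic cells and B cells. RT1-DMb read 942, 892 and 1562 in the controls and 613, 378 and 658 in the stressed livers (log2 -1.03 ± 0.25, adjusted p = 0.744 from limma). RT1-Da, an alpha chain, read 2845, 2471 and 3887 against 1603, 1863 and 1368 (log2 -0.91 ± 0.27). Cd74, the invariant chain, read 3606, 3655 and 6425 against 3461, 2598 and 2601, and RT1-Ba 2593, 2319 and 4908 against 2183, 1965 and 1506. For Cd74 the highest stressed liver, CUMS 4, was just below control 1. RT1-DMa overlapped narrowly (313, 451 and 555 against 271, 180 and 318), and RT1-Bb, RT1-Db1 and Ciita, the master regulator of the group, had log2 differences of -0.76, -0.37 and -0.43 with overlap. A second probe set of RT1-Db1 was at -0.93 and one of Ciita at 0.21. The median was -0.75 and was -0.37 without control 3, with all 8 genes still lower. How far probe sets of related RT1 genes tell them apart was not tested.

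The promoters of these genes are known for a shared set of boxes, the last of which, the Y box, is an inverted CCAAT word written here as GATTGG. Of the 6 list genes with a promoter in the RefSeq table, 5 held this word on either strand in the 150 bases before the gene start, beside 9.35% of all promoters. The 5 are shown because all 8 genes lay on one side and the word falls at a like place, from 44 to 81 bases before the start (GRCr8, reference strain and not GK, 5′ to 3′ along the gene, match in capitals):
RT1-Da, chr20:4515265-4515414, + strand: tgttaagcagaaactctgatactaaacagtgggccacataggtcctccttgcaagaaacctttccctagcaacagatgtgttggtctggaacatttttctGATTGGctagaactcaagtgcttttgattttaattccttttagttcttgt
RT1-Ba, chr20:4576907-4577056, + strand: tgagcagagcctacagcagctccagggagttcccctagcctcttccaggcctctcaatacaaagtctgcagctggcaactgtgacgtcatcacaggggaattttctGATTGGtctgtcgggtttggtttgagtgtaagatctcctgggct
RT1-Bb, chr20:4604119-4604268, - strand: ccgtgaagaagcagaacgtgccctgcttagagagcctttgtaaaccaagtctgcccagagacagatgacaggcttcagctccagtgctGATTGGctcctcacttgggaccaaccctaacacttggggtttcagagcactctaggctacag
RT1-Db1, chr20:4560163-4560312, - strand: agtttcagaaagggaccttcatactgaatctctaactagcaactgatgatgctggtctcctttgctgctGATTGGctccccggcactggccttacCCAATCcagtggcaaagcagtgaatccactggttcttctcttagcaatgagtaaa
RT1-DMa, chr20:4712336-4712485, - strand: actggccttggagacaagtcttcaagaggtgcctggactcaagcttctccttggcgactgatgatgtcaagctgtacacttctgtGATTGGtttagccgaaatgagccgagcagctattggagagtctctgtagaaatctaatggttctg

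Interferon-induced genes and the immunoproteasome were lower in 24 of 27 cases, 7 at an unadjusted p under 0.05 and 4 without overlap, with a median of -0.50. The controls were spread out in both directions: the mean of the list was 0.50, 0.03 and -0.53 in control 1, 2 and 3 and -0.36, -0.92 and -0.43 in CUMS 4 to 6. The groups therefore overlapped in the list mean, and the median was -0.24 without control 1 and -0.73 without control 3. Besides Gbp2, the 4 without overlap were Gbp4, Igtp and Psmb10. Gbp4 read 262, 220 and 237 against 140, 90 and 160. Psmb10, a catalytic subunit of the immunoproteasome, read 1507, 1562 and 1471 against 1044, 881 and 1243 (log2 -0.53 ± 0.19). Igtp, an interferon-induced GTPase, read 3984, 2907 and 2064 against 1975, 1845 and 1586. Isg15, a ubiquitin-like modifier, had a log2 difference of -1.35 with overlap, and Cxcl9, Cxcl10 and Mx1 of -0.82, -0.98 and -1.12, also with overlap. A word of the interferon response element, GAAANNGAA, stood in 12 of 22 promoters of the list on either strand, beside 4.8% of all promoters. Gbp2 and Psmb10 are shown as the cases with 1 and with 3 matches:
Gbp2, chr2:234005577-234005726, + strand: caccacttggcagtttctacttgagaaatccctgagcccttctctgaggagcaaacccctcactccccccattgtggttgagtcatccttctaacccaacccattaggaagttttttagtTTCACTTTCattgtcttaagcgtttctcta
Psmb10, chr19:50743293-50743442, - strand: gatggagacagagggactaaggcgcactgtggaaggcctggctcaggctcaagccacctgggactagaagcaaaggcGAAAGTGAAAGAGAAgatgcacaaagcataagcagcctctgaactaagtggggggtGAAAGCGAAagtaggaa

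Genes of DNA replication and mitosis were lower in 18 of 19 cases, 12 at an unadjusted p under 0.05 and 7 without overlap. The share of all genes that were lower at this level was 4.19%. Mcm6 and Mcm3, parts of the replicative helicase, read 284, 160 and 372 against 140, 97.8 and 93.9, and 163, 174 and 350 against 101, 97.2 and 69.2 (log2 -1.24 ± 0.33 and -1.29 ± 0.37). Ccnd1, the cyclin of early G1, read 629, 511 and 605 against 422, 264 and 355 (log2 -0.77 ± 0.22) and did not depend on control 3 (-0.74 without it). Pcna, the sliding clamp, read 1727, 1863 and 2446 against 1715, 1430 and 1439, so CUMS 4 lay just below control 1. Mki67, a marker of dividing cells, read 110, 110 and 631 against 103, 40.7 and 55.5, and Birc5 125, 122 and 330 against 28.7, 93.8 and 66.5. Mki67 and Birc5 were highest in control 3. The exception was Cdkn1a, a brake on the cycle, at 388, 693 and 732 against 1214, 938 and 449. The median was -0.77, and -0.43 without control 3 with 16 of 19 genes lower. In 5 of the 19 the mean of the stressed livers was under the filter limit, so these passed through the controls. E2F, the factor of S-phase genes, binds words such as TTTGGCGC, TTTCCCGC and TTTCGCGC, and 5 of 16 promoters of the list held one of them, beside 0.935% of all promoters. Mcm6 and Mcm7 are shown as helicase genes that hold it, and the 2 matches in Mcm6 overlap on opposite strands:
Mcm6, chr13:42404353-42404502, - strand: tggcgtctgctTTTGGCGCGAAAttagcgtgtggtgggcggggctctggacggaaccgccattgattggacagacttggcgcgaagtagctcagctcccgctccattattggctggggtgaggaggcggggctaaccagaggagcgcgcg
Mcm7, chr12:22163179-22163328, - strand: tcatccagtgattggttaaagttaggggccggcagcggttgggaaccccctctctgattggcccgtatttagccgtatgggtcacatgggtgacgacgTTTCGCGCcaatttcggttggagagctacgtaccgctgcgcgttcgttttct

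**Figure D4:**
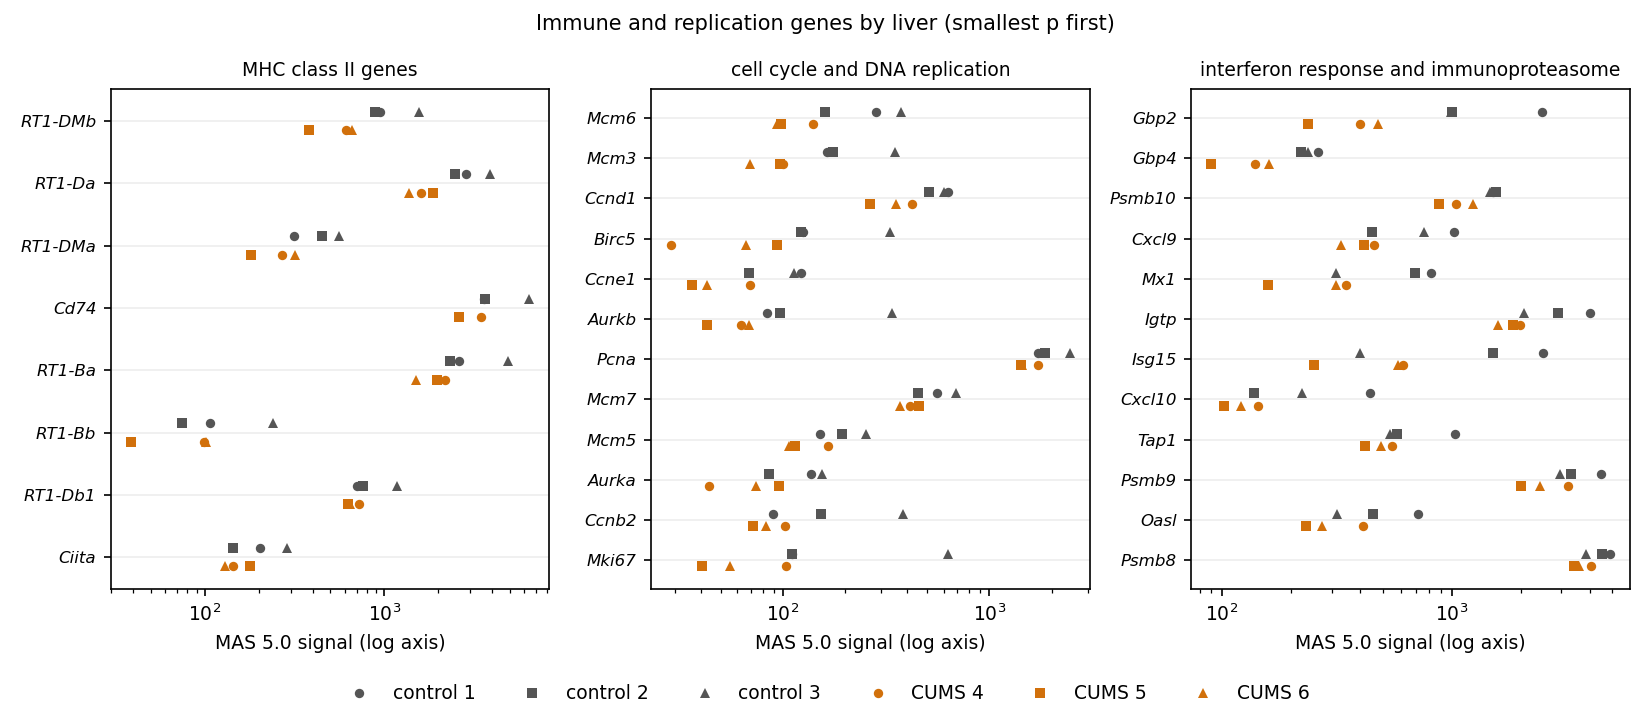
MAS 5.0 signals on a log axis in control 1 to 3 (grey) and CUMS 4 to 6 (orange) for the 8 MHC class II genes, and for the 12 genes with the smallest p of the cell cycle list and of the interferon list. Control 3 (grey triangle) is the highest liver for Cd74 at 6425 and for Mki67 at 631, whereas control 1 (grey circle) is the highest for Gbp2 at 2478.

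Markers of stellate cells, bile duct cells and macrophages were lower in number, whereas those of endothelium and lymphocytes were evenly split, and the size of the first 3 depended on control 3. Of 23 stellate cell and fibroblast markers 21 were lower, 6 at an unadjusted p under 0.05 and 4 without overlap (Lox, Reln, Fbln5 and Vim). The median was -0.66, and -0.24 without control 3. In 2 of the 23, Lox among them, the mean of the stressed livers was under the filter limit. These passed through other livers and had to be lower to be seen at all. Col1a2, a chain of fibrillar collagen, read 610, 491 and 7317 against 527, 354 and 440. Vim, vimentin, read 2084, 1517 and 7391 against 1507, 1288 and 1340. The smooth muscle actin Acta2 of activated stellate cells had a log2 difference of -0.09 and full overlap. All 5 bile duct markers were lower, 1 (Krt19) at an unadjusted p under 0.05, and their median moved from -0.40 to -0.05 without control 3. Spp1, osteopontin, read 181, 167 and 7740 against 189, 124 and 133.

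Of 15 Kupffer cell and macrophage markers 12 were lower, 5 at an unadjusted p under 0.05 and 4 without overlap, with a median of -0.43 (-0.16 without control 3). Aif1, a macrophage calcium-binding protein, read 2370, 1605 and 3108 against 1378, 1024 and 1594, and Cd5l, a scavenger protein of Kupffer cells, 6979, 5051 and 5195 against 4863, 3099 and 4296. A pair of markers that resident Kupffer cells express strongly did not share this. Clec4f read 6745, 6066 and 4304 against 6374, 5002 and 7336, and Cd14, the lipopolysaccharide co-receptor, was higher in every stressed liver, at 5208, 5343 and 4534 against 7448, 6613 and 6663 (log2 0.46 ± 0.10, adjusted p = 0.743 from limma). The summed signal of the 15 markers ran from 40916 to 59659 in the controls and from 34947 to 47128 in the stressed livers. Endothelial markers had 7 genes higher and 7 lower (median 0.00), and 12 of 14 higher without control 3. Lymphocyte markers had 6 higher and 5 lower, of which only Cd74 had an unadjusted p under 0.05, and the Cd3d and Cd3e probe sets were below the filter. Of the blood markers, Hbb read 27628, 24732 and 21549 against 24840, 23259 and 28054. Adipocyte markers were represented by 3 genes, with Adipoq and Plin1 below the filter, and pancreas markers by 2.

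**Figure D5:**
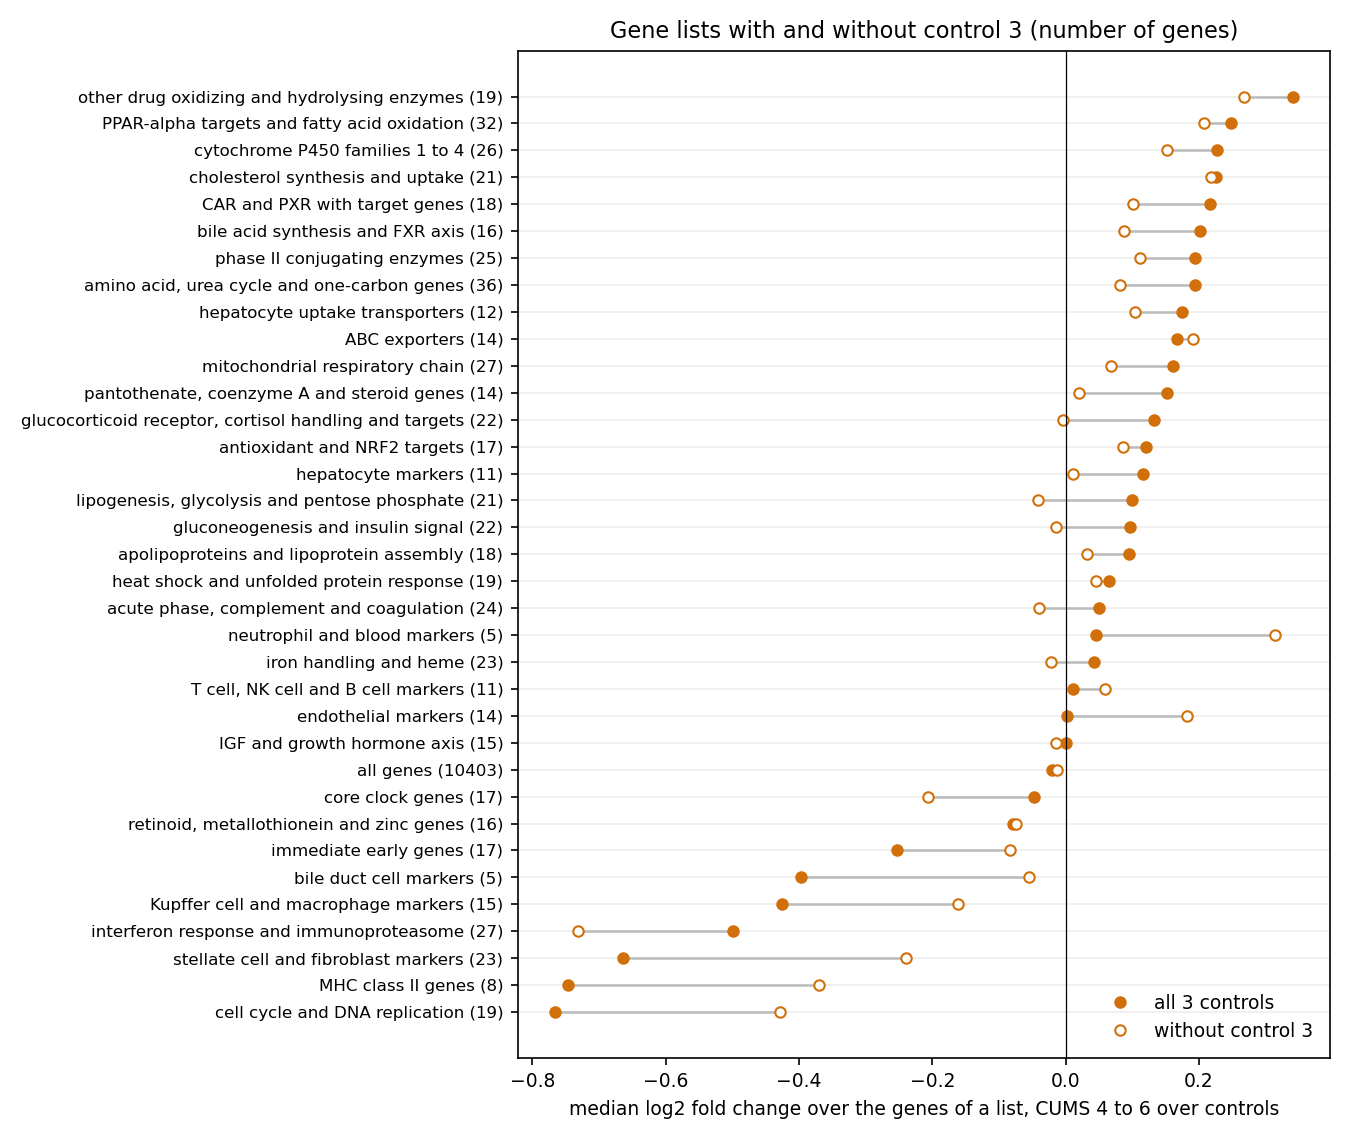
Median log2 fold change of CUMS 4 to 6 over the controls for the genes of each list on the y axis, with all 3 controls (filled) and without control 3 (open), and the number of genes in brackets. Stellate cell and fibroblast markers move from -0.66 to -0.24 and cell cycle genes from -0.77 to -0.43, whereas cholesterol genes are at 0.23 and 0.22 and depend on other arrays (0.07 without CUMS 6 and 0.39 without CUMS 5).

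Iron, clock and hormone genes were examined as further stress-related functions of the liver. Hamp, which encodes hepcidin, the hormone that blocks iron export, had the largest log2 difference among the list genes that passed the filter (log2 -3.49 ± 0.97, adjusted p = 0.744 from limma). It read 401, 5768 and 2214 in the controls and 525, 150 and 45.4 in CUMS 4, 5 and 6. CUMS 4 lay above control 1, so the groups overlapped, and the controls themselves were far apart. Id1, a target of the BMP signal that drives Hamp, read 213, 209 and 358 against 155, 137 and 180 (log2 -0.69 ± 0.26). Over the 23 iron and heme genes 12 were higher and 11 lower, with a median of 0.04.

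Of 17 core clock genes 7 were higher and 10 lower, and 3 did not overlap. Bmal1 read 113, 213 and 221 against 304, 274 and 276 (log2 0.71 ± 0.31), Npas2 304, 243 and 367 against 443, 640 and 394 (log2 0.68 ± 0.34), and the repressor Bhlhe41 323, 117 and 419 against 100, 80 and 60.2 (log2 -1.68 ± 0.56). Bmal1 and Npas2 are activators of the clock loop. The genes that swing most over the day differed within the groups as much as between them: Dbp read 4022, 1324 and 793 against 983, 1419 and 885, Per1 462, 199 and 228 against 177, 163 and 335, and Nr1d1 893, 896 and 334 against 716, 861 and 506. The hour at which each liver was taken is not given in the labels. The glucocorticoid list had 14 of 22 genes higher with a median of 0.13, and -0.00342 without control 3. Its target Tsc22d3 had a log2 difference of 0.18, Fkbp5 of -0.17 and Tat, the tyrosine aminotransferase, of -0.42, while the kinase Sgk1 read 1571, 1421 and 2031 against 1064, 1010 and 1525 (log2 -0.49 ± 0.18).

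The growth hormone and IGF list had 8 genes higher and 7 lower (median 0.00, from -0.12 without CUMS 4 to 0.08 without CUMS 5). Igfbp2 read 470, 291 and 343 against 555, 479 and 1714, and Jak2, the kinase of the growth hormone receptor, 355, 309 and 371 against 269, 234 and 232. Immediate early genes were lower in 15 of 17 cases but with 0 at an unadjusted p under 0.05 and 0 without overlap, and CUMS 4 (0.12 in the list mean) lay between control 2 (-0.13) and control 3 (0.42). Heat shock and unfolded protein genes were higher in 14 of 19 cases, 3 at an unadjusted p under 0.05. Hsph1, a chaperone of the Hsp110 family, read 2378, 2564 and 1917 against 3331, 3468 and 3185 (log2 0.55 ± 0.14). Antioxidant and NRF2 targets had 12 of 17 genes higher, 0 at an unadjusted p under 0.05, with a median of 0.12. Acute phase, complement and coagulation genes had 14 of 24 higher and a median of 0.05, with A2m at 11290, 7131 and 11418 against 6878, 3411 and 5898 and C6 at 5800, 8017 and 8255 against 5269, 3768 and 5371. Retinoid, metallothionein and zinc genes (median -0.08) and pantothenate, coenzyme A and steroid genes (median 0.15) were mixed apart from Aldh1a1, Vnn1, Cyp17a1 and Pank1.

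The 3 mild-label livers differed among themselves about as much as the livers of the other groups did. The median SD of log2 signal over probe sets was 0.21 among them, 0.23 among the controls and 0.20 among CUMS 1 to 3. In 480 probe sets CUMS 4 lay more than 1 log2 unit below both others, against 137 for CUMS 5 and 124 for CUMS 6, and CUMS 4 was also the array with the highest 3′ to 5′ actin ratio of the 6. Such counts were not made for the other groups. In CUMS 6 several metabolic genes stood apart: Tm7sf2, a sterol reductase, read 3102, 2535 and 8092 in CUMS 4, 5 and 6, Igfbp1 2928, 3057 and 9390, and Cyp7a1 5592, 7821 and 19331. In CUMS 5 the metallothionein Mt2A read 3728, beside 18522 in CUMS 4 and 12210 in CUMS 6. CUMS 4 had Tat at 2392, beside 6746 and 9010, and Gadd45a at 1690, beside 430 and 448. These genes were picked after their values were seen, and none of them separated the groups.

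The 2 stressed groups were set directly against each other with the same model. Of 18625 probe sets 0 (0%) had an adjusted p under 0.05, and at an unadjusted p under 0.05 246 (1.32%) were higher and 284 (1.52%) lower in the mild-label than in the major-label livers. With 1 probe set per gene the shares were 1.31% and 1.1%. Of the 30 genes named against the controls, Gstt3, Aldh1l1, Reep6, Nicol1, Dll4, Stx3 and Pla2g2d had an unadjusted p under 0.05 here as well. The 30 were chosen on the same CUMS 4 to 6 arrays that enter this comparison, so nothing is read from how many they are. Gstt3 read 6727, 5809 and 6583 in CUMS 4 to 6 and 3773, 5299 and 2732 in CUMS 1 to 3 (log2 0.75, adjusted p = 0.9996 from limma), and Aldh1l1 9086, 8650 and 8842 against 6323, 7188 and 5703. Nicol1 read 48.5, 29.3 and 77.5 against 144, 168 and 121, and the probe set of Dll4 named above 52.3, 53.8 and 42.9 against 127, 133 and 75.2. In these 4 the groups did not overlap. The means of Nicol1, Dll4 and Pla2g2d in CUMS 4 to 6 were under the filter limit here too, so the sizes of their differences are uncertain.

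By the same naming rule, the other genes with the smallest p were Asap2, Adamts9, RT1-N2 and Arhgef11 on the higher side and Batf3, Ddx55 and Kmt2b on the lower. Adamts9, a matrix protease, read 136, 101 and 100 against 16.8, 58 and 23.2, although a second probe set lay in the opposite direction. Batf3, a factor of dendritic cell development, read 60.1, 40 and 30.6 against 89.5, 133 and 102. The mean log2 signal of Adamts9 and Arhgef11 in CUMS 1 to 3, and of Batf3 in CUMS 4 to 6, was under the filter limit. These genes passed through the other livers, so the sizes of their differences are uncertain. Npas2 read 443, 640 and 394 in the mild-label livers, with a log2 difference of 1.27 from the major-label ones (unadjusted p = 0.0035). Alb was also higher in the mild-label livers, at 29583, 27540 and 25610 against 22976, 17128 and 19912. Between the 2 stressed groups the median log2 difference was 0.03 for MHC class II genes, 0.10 for interferon genes, -0.14 for cell cycle genes, 0.12 for the oxidizing and hydrolysing enzymes, -0.01 for PPAR-alpha targets and 0.30 for immediate early genes. It was 0.21 for stellate cell and fibroblast markers (20 of 23 higher in the mild-label livers), -0.20 for clock genes, -0.17 for cholesterol genes and 0.18 for CAR and PXR with their targets, whose median against the controls was 0.22 in the mild-label and 0.07 in the major-label livers. Of 27 respiratory chain genes 24 were higher in the mild-label livers, with a median of 0.06. Over all 10403 genes, 5401 were higher and 5002 lower in the mild-label than in the major-label livers, with a median of 0.01. The number of list genes at an unadjusted p under 0.05 was at most 2 in either direction. Both groups were compared with the same 3 controls, so their differences from control are not independent of each other.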

How the data were processed

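Liver RNA of 9 rats was measured on 9 Affymetrix rat arrays, 1 array per rat. The authors extracted RNA, labelled it with a 3′ kit and made the deposited intensity values with MAS 5.0, a linear signal scaled to one trimmed mean per array. Scale and background correction therefore come from the authors.

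From these intensities, values below 1 were set to 1 (586 values) and log2 was taken. Probe sets in the lower 40% by mean over the 9 arrays were left out. The 3 groups were fitted together with limma 3.58.1 in R 4.3.3 (empirical Bayes with a variance trend) and p-values were adjusted by Benjamini-Hochberg over all 18625 probe sets. Symbols came from the platform annotation: 20826 probe sets had 1 symbol, 436 several (not used as named genes or in lists) and 9780 none. Each gene list used the brightest probe set of a gene. Named genes had groups without overlap, a fold change of at least 1.5 (or its inverse) and the smallest p, 15 in each direction, and 5 in each direction between the stressed groups. Alternatives were another normalization or centring, 50 added to the signal, other filters, other fits, the test of the study and each array left out. The fitting was tested on simulated data. Members and lists were chosen with earlier results of these data known. Promoter sequences were RefSeq's (GRCr8). The small number of arrays limits the precision.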

Additional observations from a re-analysis of the deposited data

Results flagged for a closer look

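Of 238 genes and lists examined, 6 genes had all 3 mild-label livers on one side of the control mean and all 3 major-label livers on the other. The log2 difference between mild-label and major-label livers was 0.652 for Asap2, 2.29 for Arhgef11, -1.35 for Batf3 and -0.701 for Kmt2b, which had been named for that difference. It was 0.471 for Alb and 0.263 for Ttr, both plasma proteins of the hepatocyte. Tested directly with limma, the adjusted p of this difference was 0.9996 for all 6. Arhgef11 in CUMS 1 to 3 and Batf3 in CUMS 4 to 6 had mean log2 signals under the filter limit, so the sizes of their differences are uncertain.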

How the results depend on the processing

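None of 412 log2 differences of the 30 named genes under the alternatives turned, which the choice of genes without overlap fixes wherever 1 array is left out. List medians were less stable. In 32 of 36 lists leaving out 1 array turned the sign or changed the median by over 1.5 times, the exceptions being oxidizing and hydrolysing enzymes, cytochrome P450, PPAR-alpha targets and the 2 pancreas markers, and in 13 lists some alternative turned the sign. Among these were ABC exporters (-0.02 without CUMS 6), clock genes (0.09 without control 1), and glucocorticoid (-0.00342), gluconeogenesis (-0.01), lipogenesis (-0.04), acute phase (-0.04) and iron genes (-0.02), all without control 3. With each array centred on its median, 1 probe set had an adjusted p under 0.05 by limma (Gsta3, log2 2.01, adjusted p = 0.0292), and the lowest adjusted p over the other alternatives ran from 0.0846 upward. Without a signal filter 809 probe sets were higher and 1036 lower at an unadjusted p under 0.05, and with the stricter filter (lower 60% left out) 420 were lower. The thresholds of the study were an unadjusted p under 0.05 and a ratio of 1.5 or more, or of 0.5 or less. Over all 31042 probe sets, without a signal filter, the equal-variance test put 368 higher and 272 lower past them. With the fold limit at the inverse of 1.5, 435 were lower. With limma and the main filter again, leaving out 1 array at a time gave 0 to 0 calls, 344 to 612 higher and 470 to 951 lower. Quantile normalization gave a median of 0.0649 for NRF2 targets, 0.0961 for phase II enzymes, 0.233 for oxidizing and hydrolysing enzymes and 0.0130 for apolipoproteins, and centring gave 0.177 for NRF2 targets. The 2 pancreas markers had 0.398 with 50 added to each signal, 0.390 with the stricter filter, and, with more genes, -0.15 without a filter. With 1 array left out, the median ran from -0.86 to -0.37 for MHC class II genes (-0.37 without control 3), 0.0456 to 0.191 for heat shock genes (0.19 without control 1), 0.0502 to 0.154 for NRF2 targets (0.0502 without CUMS 5), 0.25 to 0.42 for oxidizing and hydrolysing enzymes, 0.21 to 0.33 for PPAR-alpha targets (0.33 without control 1) and -0.14 to 0.10 for retinoid genes (0.10 without control 2). Probe sets of genes were kept the same in these. The cause of the shifts was not tested. No paired analysis was possible because CUMS 4 to 6 and control 1 to 3 are different rats and share no replicate numbers. The paper describes a random division of the rats into groups and no pairing, so shared numbers would not make pairs either. In 5 of the 15 lower named genes the mean of the stressed livers was under the filter limit.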
